A study of Mus musculus with 17 samples.

Results

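The difference between cDC1s and cDC2s in their response to apoptotic tumor cell debris was measured gene by gene as an interaction, the change from WT to BimS medium in cDC1s minus the same change in cDC2s. It was tested in 12 of the 17 samples of the series, which form 4 groups of 3 replicates: cDC1s with WT medium, cDC1s with BimS medium, cDC2s with WT medium and cDC2s with BimS medium. The 5 samples with RIPK3 medium, from necroptotic cells, were left out of the fit. All cells were splenic CD11c+ cells, selected with magnetic beads and pooled over mice. The donors were female C57BL/6JRj mice, bought at 8 weeks of age and then given a subcutaneous B16-FLT3L tumor, a melanoma line that secretes the dendritic cell growth factor FLT3L. Their spleens were taken once the tumor could be felt. Culture with the medium lasted 6 h, and the subsets were sorted only then, cDC1s by XCR1 and CD8α and cDC2s by SIRPα and CD11b. The authors' culture protocol, to which their sequencing methods refer, added the cytokine GM-CSF to improve cell survival. BimS medium was taken, with the debris in it, from TC-1-iBimS cells, a clonal subline of the mouse lung carcinoma line TC-1 in which cumate had switched on BimS, a BH3-only protein that triggers mitochondrial apoptosis. WT medium came from live TC-1 cells that had been given cumate as well.

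cDC1s and cDC2s are the main lineages of conventional dendritic cells. cDC1s depend on the transcription factor IRF8, take up dead cells and cross-present their antigens to CD8+ T cells, whereas cDC2s depend on IRF4 and mainly present antigen to CD4+ T cells. Apoptotic debris brings lipids, nucleic acids and, from many cells, heme and iron into the phagocyte. Oxidants and heme switch on the transcription factor NRF2, cholesterol switches on LXR, and the interferon-stimulated genes are held up by type I interferon.

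Between 16792907 and 21645289 reads were counted on genes in the 12 samples (median 19143582). The sorted cells carried the genes of their lineages: with WT medium, 15 of 15 cDC1 markers were higher in cDC1s, and 14 of 15 cDC2 markers were higher in cDC2s, with Clec12a as the exception. The fit covered 19624 genes with edgeR's quasi-likelihood test, and a gene is said to have risen, fallen or been called where its Benjamini-Hochberg adjusted p was under 0.05. Levels are CPM, counts per 1 M reads after TMM normalization, and differences are on the log2 scale. P-values measure the spread between these samples, since neither labels nor methods say that the replicates came from separate mice or cultures.

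The cell types differed in their response for 149 genes, 0.759% of those tested. The response was more positive in cDC1s for 102 of them (0.52%) and more negative for 47 (0.24%), and 1595 genes (8.13%) had an unadjusted p under 0.05. Within cDC1s, 1655 genes (8.43%) changed with BimS medium, 969 upward (4.94%) and 686 downward (3.5%). Within cDC2s, 1983 genes (10.1%) changed, 1028 upward (5.24%) and 955 downward (4.87%). Of these, 930 genes (4.74%) changed in the same direction in both cell types and 13 (0.0662%) in opposite directions. A further 712 genes (3.63%) were called in cDC1s and not in cDC2s, and 1040 (5.3%) in cDC2s and not in cDC1s, but only a small part of them carried an interaction. The spread was unequal: a fit of cDC1 samples alone gave a common biological coefficient of variation of 4.6%, a fit of cDC2 samples alone 10.1% and the joint fit 7.77%. Fitted alone, cDC1s gave 3146 called genes and cDC2s 1183, so the order of these counts turned between the joint and the separate fits.

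The 149 interaction genes fell into 4 patterns. In cDC1s only, 50 genes were called, 34 higher and 16 lower with BimS medium. In cDC2s only, 46 genes were called, 21 higher and 25 lower. Another 40 genes changed in the same direction by different amounts, 34 of them by more in cDC1s and 6 by more in cDC2s, and the 13 opposite genes were all interaction genes. "Only" refers to the call: the 95% interval of the change in the other cell type lay within 0.5 log2 units of 0 for 40 of the 50 and for 44 of the 46 genes. Same-numbered samples of a cell type deviated together, and with the replicate number as a block within each cell type 1301 genes had an interaction (306 in cDC1s only, 439 in cDC2s only, 115 opposite, 417 in the same direction and the rest with no call in either). All 149 genes stayed among them, but 18 of the 50 and 17 of the 46 were then also called in the other cell type. Counts of list members called with the block, given below, stand beside these 1301 genes of the 19624 tested. When the calls within a cell type were taken from its own fit, all 50 cDC1 genes kept their class, as did 33 of the 46 cDC2 genes, 34 of the 40 and 6 of the 13.

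**Figure D1:**
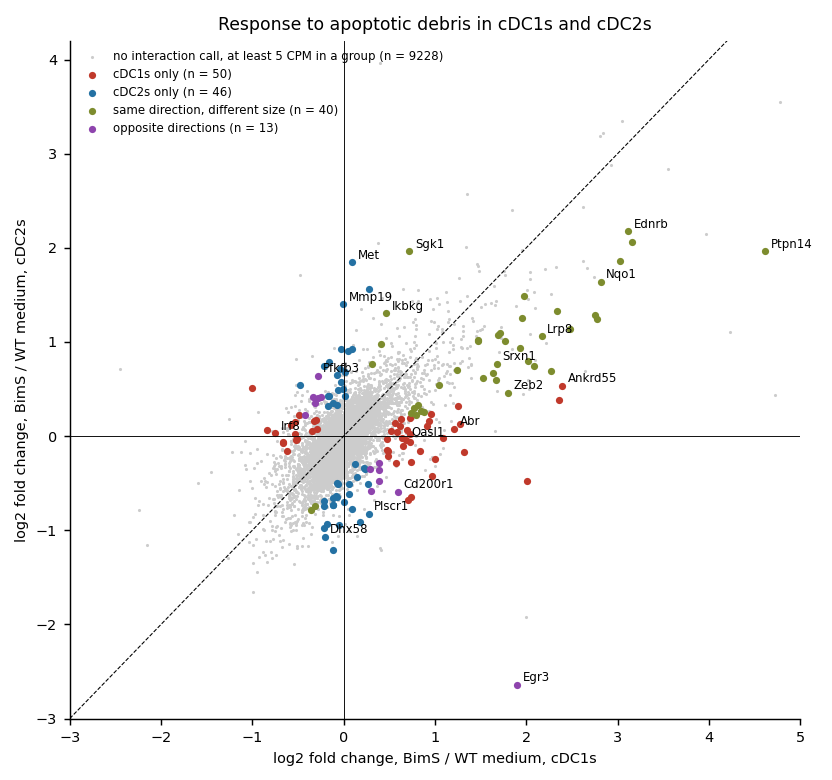
Change from WT to BimS medium in cDC1s (x axis, log2 fold change) and in cDC2s (y axis, log2 fold change) for the 149 interaction genes, colored by pattern, and in gray for genes without an interaction call that reached a mean of 5 CPM in a group. On the dashed line both changes are equal. Ptpn14, at 4.62 in cDC1s and 1.96 in cDC2s, lies far below the line, Met, at 0.09 and 1.84, lies above it, and Egr3, at 1.90 and -2.64, is the lowest point.

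Among the 34 genes that rose in cDC1s only, the 5 largest interactions at a mean of 5 CPM or more in a group were those of Marchf3, Ankrd55, Hbegf, Selp and Tnfrsf10b. Ankrd55 (ENSMUSG00000049985, chromosome 13 from 112424985 to 112520536 of GRCm39), which encodes an ankyrin repeat protein, stood at 3.52, 3.65 and 3.22 CPM in cDC1s with WT medium and at 17.7, 19.7 and 17.2 CPM with BimS medium. In cDC2s it stood at 1.61, 1.80 and 1.96 CPM and at 2.21, 2.26 and 3.32 CPM. The groups did not overlap in either cell type, but the change was 2.39 (95% interval 2.11 to 2.67) in cDC1s and 0.53 (0.12 to 0.94, adjusted p = 0.0993) in cDC2s, a difference of 1.86 (SE 0.248, adjusted p = 0.00011). With the block the small rise in cDC2s was called too (adjusted p = 0.0467). Marchf3, a membrane-bound ubiquitin ligase, went from 1.61, 2.31 and 2.00 CPM to 8.65, 11.6 and 10.2 CPM in cDC1s. In cDC2s its WT samples, at 1.87, 1.57 and 1.69 CPM, overlapped with its BimS samples, at 2.58, 1.54 and 2.65 CPM, and the interaction was 1.98 (adjusted p = 0.000695). In these bulk samples, more cells with a transcript and more transcript per cell cannot be told apart.

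The other 3 of these genes rose from a low level. Hbegf, a ligand of the EGF receptor, rose in cDC1s from 0.862 ± 0.0784 to 2.17 ± 0.401 CPM (SD, n = 3) and was higher in cDC2s throughout, at 5.22 ± 0.610 and 4.65 ± 0.287 CPM. Selp, the adhesion receptor P-selectin, changed by 0.97 in cDC1s and by -0.42 in cDC2s (adjusted p = 0.0659), and Tnfrsf10b, the mouse TRAIL death receptor, by 0.71 and -0.68 (adjusted p = 0.0894). With the block both of these were called in opposite directions (adjusted p in cDC2s = 5.94e-05 and 0.0204). The interaction of Tnfrsf10b lost its call without any 1 of 8 of the 12 samples, with an adjusted p of up to 0.114.

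Further genes of the group belong to lists of known function. Cd300a, an inhibitory receptor that binds phosphatidylserine on dying cells, went from 37.6, 39.6 and 40.9 CPM to 76.9, 77.4 and 72.0 CPM in cDC1s. In cDC2s it was higher with either medium, at 112, 125 and 138 CPM with WT and 130, 149 and 140 CPM with BimS medium, so that the cDC2 groups overlapped. The difference in response was 0.78 (SE 0.111, adjusted p = 0.000238), and with the block the cDC2 change of 0.16 was called as well (adjusted p = 0.000678). Mylip, the LXR-induced ubiquitin ligase that degrades the LDL receptor, rose by 0.95 in cDC1s, from 65.4 ± 6.38 to 127 ± 14.6 CPM, and read 17.8 ± 0.426 and 21.0 ± 2.16 CPM in cDC2s (change 0.24, adjusted p = 0.164, with the block 0.00612). Soat1, which esterifies cholesterol and was picked after its values had been seen, rose from 66.3 ± 0.731 to 124 ± 3.43 CPM in cDC1s against 69.0 ± 8.08 and 74.6 ± 4.67 CPM in cDC2s (interaction 0.80, adjusted p = 0.000173). Abr, a GTPase-activating protein for Rac picked in the same way, had equal levels in both cell types with WT medium, 158, 155 and 169 CPM in cDC1s and 172, 173 and 137 CPM in cDC2s. With BimS medium it reached 390, 341 and 387 CPM in cDC1s and still overlapped with its WT samples in cDC2s, at 159, 195 and 152 CPM, an interaction of 1.14 (adjusted p = 6.7e-05).

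The 16 genes that fell in cDC1s only included Irf8 itself, the factor on which the lineage depends. Irf8 (ENSMUSG00000041515, chromosome 8 from 121463096 to 121485659) fell from 318, 282 and 338 CPM to 179, 184 and 196 CPM in cDC1s, a change of -0.75 (-0.95 to -0.54). It read 24.3, 20.1 and 18.6 CPM and 25.1, 17.8 and 21.7 CPM in cDC2s, where the groups overlapped. The interaction was -0.78 (SE 0.152, adjusted p = 0.0124), and it lost its call, at adjusted p-values up to 0.0559, without cDC1 WT replicate 1, cDC2 WT replicate 2, cDC2 WT replicate 3 or cDC1 BimS replicate 1. In edgeR's test without the block it was the only one of the 15 cDC1 markers with an interaction call, and with the block Cd36 was called too (interaction -0.35, adjusted p = 0.134, with the block 9.02e-12). DESeq2 called 2 of the markers. Over all genes 0.759% had an interaction in edgeR, and 4.94% rose and 3.5% fell in cDC1s, with a median change of 0. Within cDC1s 3 of the markers rose and 3 fell, with a median change of -0.06. Those that rose were Clec9a, the dead-cell receptor, by 0.26 (adjusted p = 0.0231), the chemokine receptor Xcr1 by 0.44 (adjusted p = 2.54e-05) and the scavenger receptor Cd36 by 0.49 (adjusted p = 1.85e-05). Besides Irf8, the integrin Itgae and Gcsam fell, by 0.46 (adjusted p = 0.00252) and 0.99 (adjusted p = 4.05e-08) on the log2 scale.

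Il6, the cytokine interleukin 6, fell from 57.6, 65.5 and 60.9 CPM to 44.0, 46.6 and 40.1 CPM in cDC1s and read 40.3, 37.8 and 34.6 CPM and 43.8, 42.0 and 46.1 CPM in cDC2s. With BimS medium the cell types thus overlapped, and the interaction was -0.72 (adjusted p = 0.000947). The cDC2 change of 0.23 had an adjusted p of 0.0836, and with the block it was called, so that Il6 joined the opposite genes (adjusted p = 0.000647). Fyb1, an adaptor protein of integrin signaling, fell by 0.58 on the log2 scale in cDC1s (adjusted p = 3.26e-05), Plekhg3 by 0.53 (adjusted p = 0.000795), and Lratd2 by 0.84 (adjusted p = 0.000649). For Plekhg3 the cDC2 change of 0.15 was called as a rise with the block (adjusted p = 0.0092). Nr4a3, an orphan nuclear receptor linked to dendritic cell maturation, fell from 1540 ± 90.5 to 968 ± 32.8 CPM in cDC1s and read 2960 ± 377 and 2820 ± 261 CPM in cDC2s (interaction -0.60, adjusted p = 0.00594). Havcr2, which encodes the phosphatidylserine receptor TIM-3, fell by 0.33 on the log2 scale in cDC1s and changed by 0.16 in cDC2s (adjusted p = 0.246, with the block 2.19e-05). Nfkb1, the p105 and p50 subunit of NF-κB, fell by 0.34 on the log2 scale in cDC1s, with a change of 0.05 in cDC2s (interaction -0.40, adjusted p = 0.0236).

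Of the 21 genes that rose in cDC2s only, Met and Mmp19 were the largest. Met (ENSMUSG00000009376, chromosome 6 from 17463749 to 17573979), the receptor of hepatocyte growth factor, stood at 4.82, 4.87 and 3.22 CPM in cDC2s with WT medium and at 17.3, 14.3 and 14.8 CPM with BimS medium. cDC1s held it at 19.8, 19.4 and 20.8 CPM and at 20.9, 23.6 and 19.5 CPM. The cDC2 samples thus moved toward the cDC1 level, from 21.5% to 72.6% of it, and the interaction was -1.75 (SE 0.176, adjusted p = 2.79e-06). Mmp19 (ENSMUSG00000025355, chromosome 10 from 128626773 to 128636695), a matrix metalloproteinase, moved away from it: 47.2, 55.6 and 54.4 CPM became 134, 136 and 146 CPM in cDC2s, while cDC1s read 28.2, 25.6 and 28.8 CPM and 27.4, 24.1 and 31.1 CPM. Its change was 1.40 (1.23 to 1.58) in cDC2s and 0.00 (-0.19 to 0.18) in cDC1s, with an interaction of -1.41 (adjusted p = 3.24e-07).

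Serpinb9b, of the granzyme B inhibitor family, rose from 2.96, 2.15 and 2.73 CPM to 10.2, 6.43 and 6.69 CPM in cDC2s, but its interaction of -1.28 (adjusted p = 0.0428) lost its call without any 1 of 8 of the samples, with an adjusted p of up to 0.238. Fbxo31, a substrate receptor of ubiquitin ligases, rose by 0.74 in cDC2s (adjusted p = 9.56e-06). Adgrg5, an adhesion G protein-coupled receptor, rose by 0.54 in cDC2s (adjusted p = 0.0121) and changed by -0.48 in cDC1s (adjusted p = 0.0621), which became a call with the block (adjusted p = 0.0119). Inhba, the subunit of activin A, rose from 40.5 ± 3.55 to 65.2 ± 4.96 CPM in cDC2s and read 5.49 ± 0.585 and 5.53 ± 0.399 CPM in cDC1s. Ddit4, an inhibitor of mTORC1, rose from 42.3 ± 6.48 to 66.4 ± 4.72 CPM in cDC2s against 8.75 ± 0.985 and 8.30 ± 0.657 CPM in cDC1s. Both had a several-fold higher level in cDC2s than in cDC1s with WT medium, and their interactions were -0.67 (adjusted p = 0.0284) and -0.73 (adjusted p = 0.0199).

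The 25 genes that fell in cDC2s only were led by Plscr1, Ptpn6, Snx30, Arhgap25 and Oasl2. Ptpn6 (ENSMUSG00000004266, chromosome 6 from 124697670 to 124715840), which encodes the inhibitory tyrosine phosphatase SHP-1, went from 60.5, 67.4 and 67.2 CPM to 36.8, 33.3 and 33.3 CPM in cDC2s. In cDC1s it read 175, 141 and 160 CPM and 206, 156 and 175 CPM, groups that overlapped. The interaction was 1.09 (SE 0.132, adjusted p = 4.85e-05), and with the block the cDC1 change of 0.18 was called as a rise (adjusted p = 9.88e-05). Arhgap25, a GTPase-activating protein for Rac, fell from 12.8 ± 2.06 to 6.68 ± 0.350 CPM in cDC2s and read 35.9 ± 0.615 and 34.5 ± 1.34 CPM in cDC1s. Snx30, a sorting nexin, fell from 6.26 ± 1.61 to 2.68 ± 0.602 CPM in cDC2s and read 23.1 ± 2.67 and 21.2 ± 0.954 CPM in cDC1s. Plscr1, an interferon-inducible phospholipid scramblase, fell from 30.4 ± 1.70 to 17.2 ± 0.748 CPM in cDC2s and read 8.29 ± 0.457 and 10.0 ± 0.900 CPM in cDC1s (interaction 1.10, adjusted p = 6.78e-05; with the block the cDC1 change of 0.27 had an adjusted p of 0.0401).

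A few more genes that fell in cDC2s only, and act in lysosomes or endosomes, were picked after their values had been seen. Ctsc, the protease cathepsin C, fell by 0.50 on the log2 scale in cDC2s, Cst3, the cathepsin inhibitor cystatin C, by 0.65, and Grn, the precursor of the lysosomal granulins, by 0.98. Unc93b1, which carries nucleic acid-sensing Toll-like receptors to endosomes, fell by 0.74. For Cst3, Grn and Unc93b1 the cDC1 changes of -0.12, -0.22 and -0.21 were called with the block (adjusted p = 0.000648, 0.000363 and 4.25e-07) and in the fit of cDC1s alone (adjusted p = 0.00825, 0.00744 and 0.000144), so these genes fell in both cell types by different amounts there. Other lysosomal genes, picked in the same way, rose: the lipase Lipa rose by 1.76 in cDC1s and 1.01 in cDC2s (interaction 0.76, adjusted p = 0.000587). The nuclease Dnase2a and the peptidase Dpp7 rose in cDC1s only, by 0.47 and 0.84, with interactions of 0.62 (adjusted p = 0.0237) and 0.99 (adjusted p = 0.0181) that lost their call without any 1 of 5 and of 4 samples, at adjusted p-values up to 0.109 and 0.0917.

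**Figure D2:**
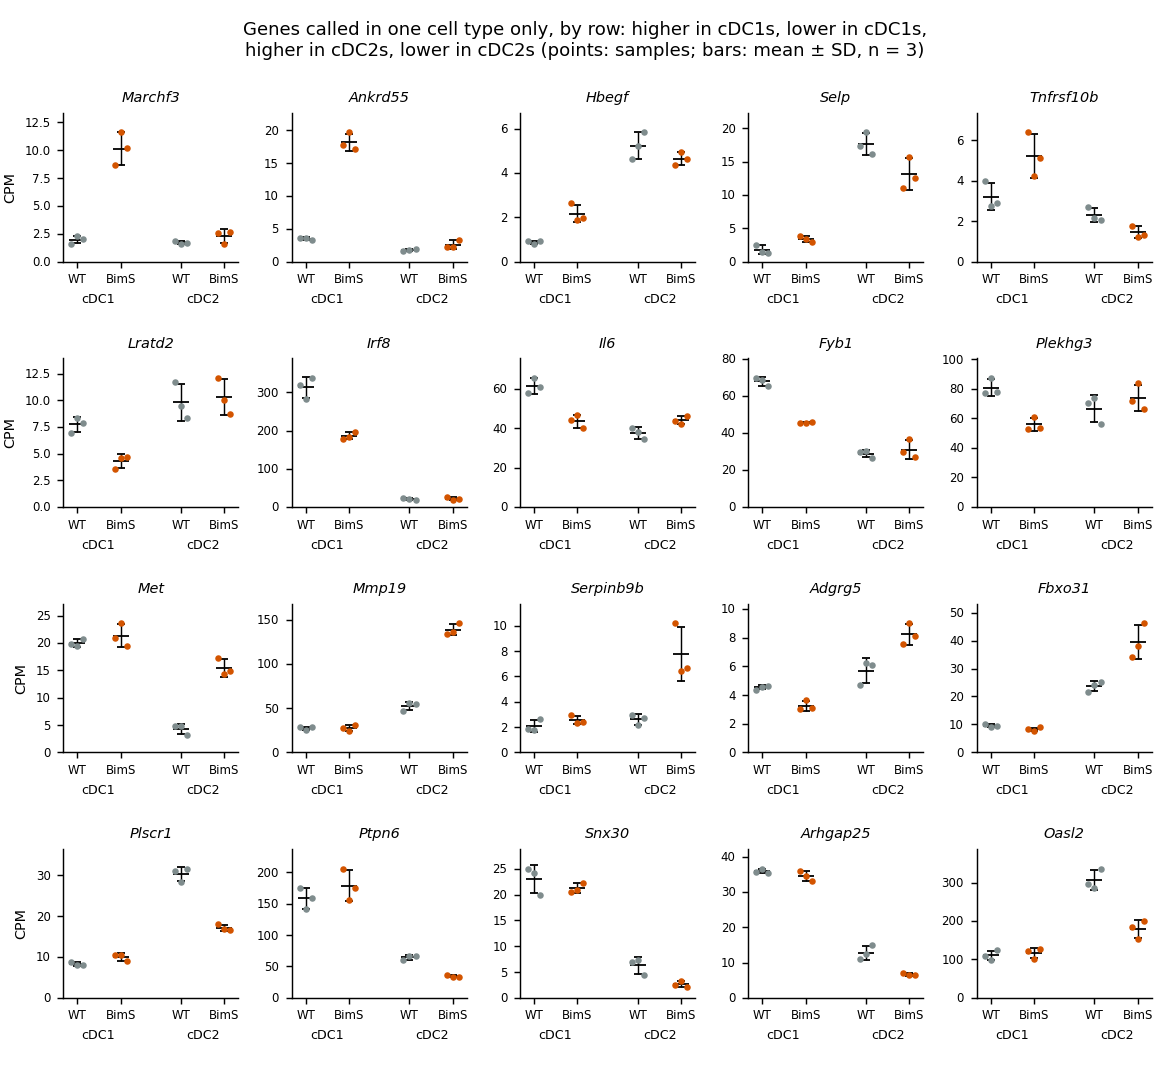
CPM per sample (y axis, from 0) with WT and BimS medium in cDC1s and in cDC2s for the 5 largest interactions in each one-cell-type group. Points are samples, and black bars are mean ± SD (n = 3). The rows show genes higher in cDC1s, lower in cDC1s, higher in cDC2s and lower in cDC2s. Irf8 falls below 200 CPM in all 3 cDC1 samples with BimS medium, and Mmp19 exceeds 130 CPM in all 3 cDC2 samples with BimS medium.

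Of 40 interferon-stimulated genes tested, 16 fell and 1 rose in cDC1s, where 3.5% of all genes fell and 4.94% rose. In cDC2s 32 fell and none rose, where 4.87% of all genes fell. With WT medium the level was higher in cDC2s for 31 of the 40 genes and in cDC1s for 9. How far fewer reads in cDC1s lowered the number of calls there was not tested. An interaction was called for 4 of the 40, beside 0.759% of all genes, all more positive in cDC1s: Oasl1, Oasl2, Dhx58 and Rsad2. The median change of the list was -0.51 in cDC1s and -0.83 in cDC2s, beside 0 and -0.01 over all genes tested, and the interaction estimate was above 0 for 35 of the 40 (median 0.34, against 0.02 over all genes). With the block 17 had a positive and 1 a negative interaction. Dhx58, the RIG-I-like receptor LGP2, went from 41.3, 39.3 and 44.1 CPM to 22.3, 17.0 and 20.4 CPM in cDC2s. In cDC1s it read 48.7, 41.8 and 48.8 CPM and 44.7, 34.9 and 41.0 CPM, which overlapped, and the interaction was 0.86 (adjusted p = 0.00139). With the block the cDC1 change of -0.21 was called as well (adjusted p = 0.00169).

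Oasl1 and Oasl2 are neighboring genes of the oligoadenylate synthetase-like family, on chromosome 5 from 115061294 to 115075974 and from 115034997 to 115050295. Both interactions were positive, but the change of Oasl1 was called in cDC1s and that of Oasl2 in cDC2s. Oasl1, an inhibitor of Irf7 translation, rose in cDC1s from 343, 356 and 409 CPM to 599, 536 and 638 CPM and read 56.1, 62.2 and 68.1 CPM and 66.0, 49.9 and 65.8 CPM in cDC2s. It was the 1 gene of the list that rose, and its interaction of 0.72 (adjusted p = 0.0201) lost its call without any 1 of 6 samples, with an adjusted p of up to 0.132. Oasl2 fell in cDC2s from 297, 286 and 336 CPM to 183, 154 and 199 CPM and read 108, 99.7 and 124 CPM and 123, 102 and 127 CPM in cDC1s. Its interaction was 0.87 (adjusted p = 0.00354). Rsad2, the antiviral enzyme viperin, fell from 47.7, 47.9 and 47.5 CPM to 35.4, 26.6 and 31.5 CPM in cDC2s and overlapped in cDC1s, at 16.2, 16.6 and 17.9 CPM and 19.3, 13.7 and 19.7 CPM. With an adjusted p of 0.0485 it was the closest to the threshold of these genes, and it lost the call without any 1 of 10 samples, with an adjusted p of up to 0.2.

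The promoters of these genes were searched for the interferon-stimulated response element, spelled as GAAA, any 2 bases and GAAA on either strand, in a window of 300 bases from 250 before to 50 after the start of the canonical transcript (GENCODE M39, GRCm39). It was found in 24 of the 40 promoters of the list (60.0%), in 503 of all 13694 promoters (3.67%), in 3 of 25 genes that fell in cDC2s only (12.0%) and in 3 of 13 opposite genes (23.1%). In the other patterns it was found in 2 of 34 genes higher in cDC1s only (5.88%), 1 of 20 higher in cDC2s only (5.0%), 1 of 34 with the larger change in cDC1s (2.94%) and none of the 15 lower in cDC1s only or the 6 with the larger change in cDC2s, and these shares were not tested. Of the 3 opposite genes with a match, Ifi207 rose in cDC1s and fell in cDC2s, whereas Pfkfb3 and Vegfa did the reverse. Matches among interaction genes are shown for 2 genes of the list that fell in cDC2s only, for Trim12c, a TRIM family gene of the same group, and for Ifi207, an interferon-inducible gene that changed in opposite directions. All 4 lie on the minus strand and are given 5′ to 3′ along the gene, with the element in capitals: Rsad2 at chr12:26506402-26506701, Dhx58 at chr11:100595048-100595347, Trim12c at chr7:104002552-104002851 and Ifi207 at chr1:173569334-173569633. The element begins 120 bases before the start in Rsad2, 4 before it in Dhx58 and 33 before it in Ifi207, and 16 bases after it in Trim12c. No match was found in the windows of Oasl1 and Oasl2.
Rsad2: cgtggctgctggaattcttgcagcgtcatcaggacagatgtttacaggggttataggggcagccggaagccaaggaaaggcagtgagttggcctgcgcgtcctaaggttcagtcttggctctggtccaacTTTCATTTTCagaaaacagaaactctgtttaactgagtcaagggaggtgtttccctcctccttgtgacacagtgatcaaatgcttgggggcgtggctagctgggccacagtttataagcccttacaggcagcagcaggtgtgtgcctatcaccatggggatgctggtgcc
Dhx58: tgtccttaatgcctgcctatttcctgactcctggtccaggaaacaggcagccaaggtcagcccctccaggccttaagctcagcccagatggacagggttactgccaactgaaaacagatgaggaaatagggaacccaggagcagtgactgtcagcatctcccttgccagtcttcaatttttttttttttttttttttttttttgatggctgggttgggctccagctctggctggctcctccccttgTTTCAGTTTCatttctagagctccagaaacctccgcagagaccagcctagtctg
Trim12c: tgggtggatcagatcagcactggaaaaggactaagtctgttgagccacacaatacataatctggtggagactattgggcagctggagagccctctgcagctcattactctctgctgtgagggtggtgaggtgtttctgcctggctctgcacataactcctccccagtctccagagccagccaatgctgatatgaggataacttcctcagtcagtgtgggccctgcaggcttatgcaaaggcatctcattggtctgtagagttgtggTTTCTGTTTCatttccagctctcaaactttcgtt
Ifi207: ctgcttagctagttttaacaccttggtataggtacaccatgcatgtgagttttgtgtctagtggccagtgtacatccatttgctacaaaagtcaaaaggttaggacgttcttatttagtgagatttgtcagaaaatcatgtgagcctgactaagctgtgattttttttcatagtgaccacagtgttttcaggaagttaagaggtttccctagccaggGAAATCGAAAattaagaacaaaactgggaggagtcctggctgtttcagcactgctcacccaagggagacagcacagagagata

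Trim12c fell from 74.9, 64.3 and 66.7 CPM to 50.8, 45.3 and 48.4 CPM in cDC2s and read 91.9, 95.4 and 100 CPM and 94.7, 88.7 and 92.5 CPM in cDC1s (interaction 0.45, adjusted p = 0.031). Its paralog Trim12a fell in cDC2s only as well, by 0.73 on the log2 scale, with a call in cDC1s under the block (adjusted p = 0.0278), and because the counting could split reads between near-identical copies their values are uncertain. The same holds for Ifi207, which belongs to a cluster of similar genes.

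The 13 opposite genes were called up in one cell type and down in the other, and in 12 of them the groups overlapped in neither cell type (over all genes, groups did not overlap for 29.3% in cDC1s and 22.4% in cDC2s). For 7 the response was higher in cDC1s: Egr3, Cd200r1, Ifi207, Nt5c3, Stx3, Mafk and Nr4a1. For 6 it was higher in cDC2s: Pfkfb3, Mycl, Vegfa, Lrp1, Grk5 and Pak1. Cd200r1 (ENSMUSG00000022667, chromosome 16 from 44586096 to 44615343), the inhibitory receptor of CD200, went from 7.70, 6.89 and 7.35 CPM to 10.2, 12.0 and 11.0 CPM in cDC1s. In cDC2s it went from 10.0, 8.24 and 8.12 CPM to 5.41, 6.02 and 6.09 CPM. The cell type with the higher level thus changed from cDC2s to cDC1s in the means, and the changes were 0.60 (0.35 to 0.85) and -0.59 (-0.86 to -0.32), an interaction of 1.19 (SE 0.176, adjusted p = 0.000432). Ifi207, of the HIN-200 family of DNA sensors, rose from 178, 175 and 187 CPM to 217, 215 and 232 CPM in cDC1s and fell from 82.8, 78.0 and 66.6 CPM to 61.2, 45.3 and 45.8 CPM in cDC2s (interaction 0.88, adjusted p = 0.000947).

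Pfkfb3 (ENSMUSG00000026773, chromosome 2 from 11476244 to 11558888), which makes the activator of the glycolytic enzyme phosphofructokinase, fell from 308, 339 and 341 CPM to 268, 268 and 276 CPM in cDC1s. In cDC2s it rose from 250, 222 and 204 CPM to 376, 328 and 352 CPM. The cell types exchanged places: all cDC1 samples were higher with WT medium and all cDC2 samples with BimS medium, and the interaction was -0.93 (SE 0.105, adjusted p = 1.72e-05). Of 23 glycolysis genes Pfkfb3 was the one called here, beside 0.759% of all genes. With the block 5 were called, 4 of them positive, beside the number over all genes given above. Vegfa, the vascular growth factor, fell from 90.5, 91.5 and 90.8 CPM to 76.1, 74.9 and 73.3 CPM in cDC1s and rose from 260, 257 and 228 CPM to 329, 336 and 321 CPM in cDC2s (interaction -0.69, adjusted p = 0.000138). Lrp1, an endocytic receptor that takes part in the uptake of dying cells, fell from 74.5, 79.9 and 80.6 CPM to 65.3, 65.8 and 66.4 CPM in cDC1s and rose from 257, 268 and 217 CPM to 330, 352 and 310 CPM in cDC2s (interaction -0.67, adjusted p = 0.00106). For both Vegfa and Lrp1 the level was higher in cDC2s with WT medium, and the difference was wider with BimS medium.

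Nr4a1, the orphan nuclear receptor Nur77, rose from 80.3, 73.2 and 80.2 CPM to 95.2, 89.8 and 99.6 CPM in cDC1s and fell from 40.4, 41.9 and 40.1 CPM to 28.2, 35.3 and 32.0 CPM in cDC2s (interaction 0.64, adjusted p = 0.00277). Cd200r1, Ifi207, Pfkfb3, Vegfa, Lrp1 and Nr4a1 were the 6 that stayed opposite when each cell type was fitted alone. The other 7 lost the call in cDC2s there. Their cDC1 changes were 0.38 for Mafk, a small Maf protein that pairs with NRF2, 0.38 for Stx3, a membrane fusion protein, 0.39 for the nucleotidase Nt5c3, -0.42 for the kinase Pak1, -0.31 for the receptor kinase Grk5 and -0.34 for Mycl, the Myc family member of cDC1s. In cDC2s the same genes changed by -0.29, -0.37, -0.47, 0.22, 0.36 and 0.42. The WT and BimS samples of Mycl overlapped in cDC2s, at 17.8, 12.8 and 14.0 CPM and at 17.8, 18.9 and 23.2 CPM.

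The seventh, Egr3, an early growth response factor, was nearly absent from cDC2s. It had 4, 6 and 5 reads in cDC2s with WT medium and 1, 0 and 1 with BimS medium, a ratio of 7.15 with a 95% counting interval of 1.66 to 64.4. In cDC1s it rose from 2.37, 2.37 and 2.45 CPM to 10.6, 7.23 and 9.12 CPM, a change of 1.90 (1.54 to 2.26). The fitted interaction of 4.54 (adjusted p = 0.00217) rests on these few reads, and in the fit of cDC2s alone the fall had an adjusted p of 0.114.

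**Figure D3:**
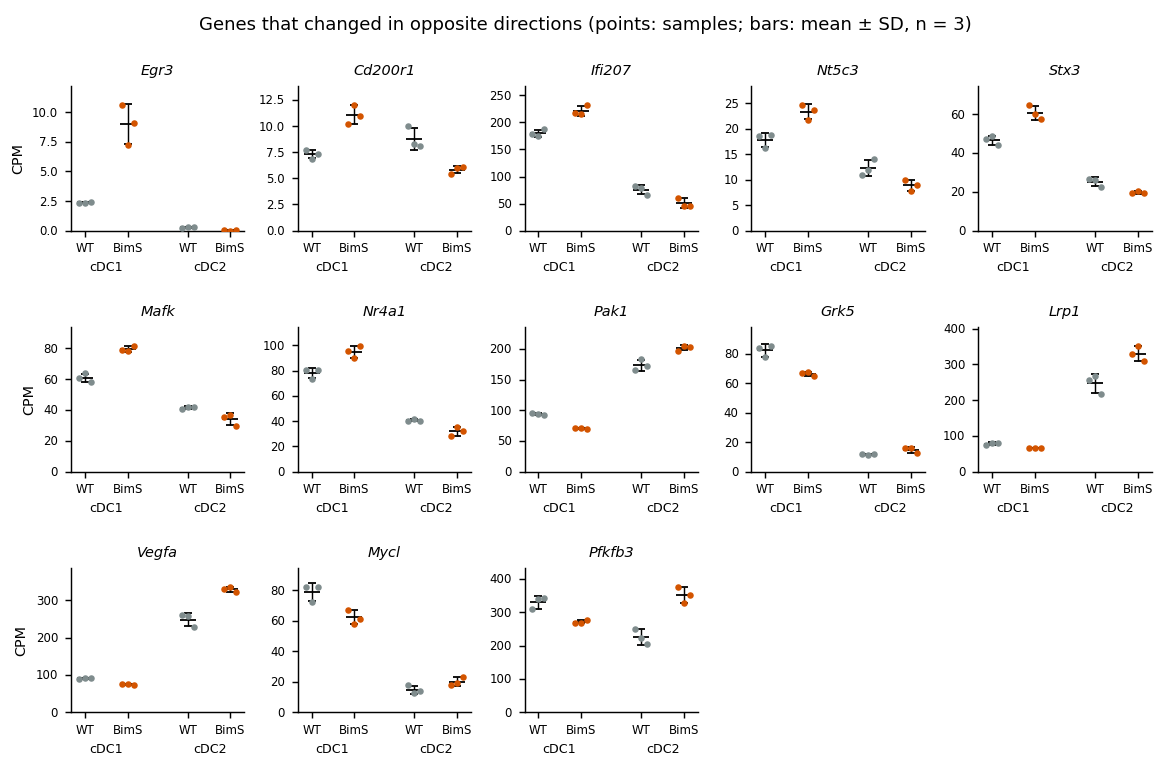
CPM per sample (y axis, from 0) of the 13 genes called in opposite directions, with WT and BimS medium in cDC1s and in cDC2s. Points are samples and black bars are mean ± SD (n = 3). The first 7 genes, Egr3 to Nr4a1, rise in cDC1s and fall in cDC2s, and Pak1 to Pfkfb3 do the reverse. Egr3 is at or below 6 reads in every cDC2 sample.

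The genes that responded in both cell types but more in cDC1s were mostly genes with a lower level in cDC1s: with WT medium, 28 of the 34 were higher in cDC2s and 3 in cDC1s. Of all 149 interaction genes, 66 were higher in cDC2s and 59 in cDC1s with WT medium, and over all genes 44.5% differed in either direction. The 34 genes included 6 of the 30 tested genes of the NRF2 and heme list, namely Nqo1, Osgin1, Srxn1, Gsr, Gclm and Abcc1. Over all genes 0.759% had an interaction. Of the whole list, 27 genes rose in cDC1s and 28 in cDC2s, with medians of 1.45 and 1.01. The interaction estimate was above 0 for 24 (median 0.31). Over all genes, 4.94% rose in cDC1s and 5.24% in cDC2s, with medians of 0 and -0.01 and a median interaction of 0.02. With the block 18 genes of the list had a positive and 1 a negative interaction, beside the number over all genes given above. Nqo1 (ENSMUSG00000003849, chromosome 8 from 108113835 to 108129934), a quinone reductase, rose from 6.60, 6.17 and 5.95 CPM to 50, 37.2 and 44.7 CPM in cDC1s. In cDC2s it rose from 49.3, 42.5 and 58.6 CPM to 164, 133 and 171 CPM. With BimS medium cDC1s had thus come near the level that cDC2s had with WT medium, and the changes of 2.82 (2.50 to 3.13) and 1.64 (1.38 to 1.90) differed by 1.18 (adjusted p = 0.00568).

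Srxn1, sulfiredoxin, which repairs overoxidized peroxiredoxins, rose from 422, 438 and 407 CPM to 1390, 1320 and 1350 CPM in cDC1s and from 836, 946 and 1070 CPM to 1480, 1580 and 1790 CPM in cDC2s (interaction 0.91, adjusted p = 4.01e-05). Gclm and Gsr, of glutathione synthesis and reduction, differed by 0.48 (adjusted p = 0.0332) and 0.69 (adjusted p = 0.00214). Osgin1, an oxidative stress-induced growth inhibitor, differed by 1.34 (adjusted p = 4.85e-05), and Abcc1, an exporter of glutathione conjugates, by 0.45 (adjusted p = 0.0191). Hmox1, the inducible heme oxygenase, had no interaction call: it rose by 3.05 in cDC1s and 3.35 in cDC2s, a difference of -0.29 (-0.71 to 0.12, adjusted p = 0.781). Nfe2l2, which encodes NRF2, changed by -0.02 and 0.10 without a call in either, and with the block it was called in cDC2s (adjusted p = 0.0264). Slc7a11, the cystine importer, missed the threshold with 0.63 (adjusted p = 0.0565) and passed it with the block.

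The NRF2-binding antioxidant response element, searched as TGACNNNGC on either strand, was found in 7 of the 30 promoters of this list (23.3%), in 5 of the 34 genes with the larger rise in cDC1s (14.7%) and in 1868 of all 13694 promoters (13.6%). In the other patterns it was found in 5 of 34 genes higher in cDC1s only (14.7%), 4 of 15 lower in cDC1s only (26.7%), 5 of 20 higher in cDC2s only (25.0%), 3 of 25 lower in cDC2s only (12.0%), 2 of 6 with the larger change in cDC2s (33.3%) and 5 of 13 opposite genes (38.5%), with no test of these shares. It was present in the windows of Gclm and Srxn1, which are shown with the element in capitals (both on the plus strand, 5′ to 3′, Gclm at chr3:122038876-122039175 and Srxn1 at chr2:151947194-151947493), and was not found in those of Nqo1, Osgin1, Gsr and Abcc1. It begins 54 bases before the start in Gclm and 28 bases after it in Srxn1.
Gclm: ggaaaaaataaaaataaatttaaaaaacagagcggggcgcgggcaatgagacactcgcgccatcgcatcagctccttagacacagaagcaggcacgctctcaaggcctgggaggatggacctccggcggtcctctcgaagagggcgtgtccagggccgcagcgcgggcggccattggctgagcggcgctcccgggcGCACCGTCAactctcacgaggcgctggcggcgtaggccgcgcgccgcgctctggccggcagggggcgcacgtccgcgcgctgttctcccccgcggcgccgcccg
Srxn1: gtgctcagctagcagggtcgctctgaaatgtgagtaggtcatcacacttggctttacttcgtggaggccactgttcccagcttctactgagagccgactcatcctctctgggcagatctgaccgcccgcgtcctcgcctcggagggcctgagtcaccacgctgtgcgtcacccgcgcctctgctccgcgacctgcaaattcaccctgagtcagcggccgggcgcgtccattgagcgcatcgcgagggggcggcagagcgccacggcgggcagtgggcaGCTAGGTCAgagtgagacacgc

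**Figure D4:**
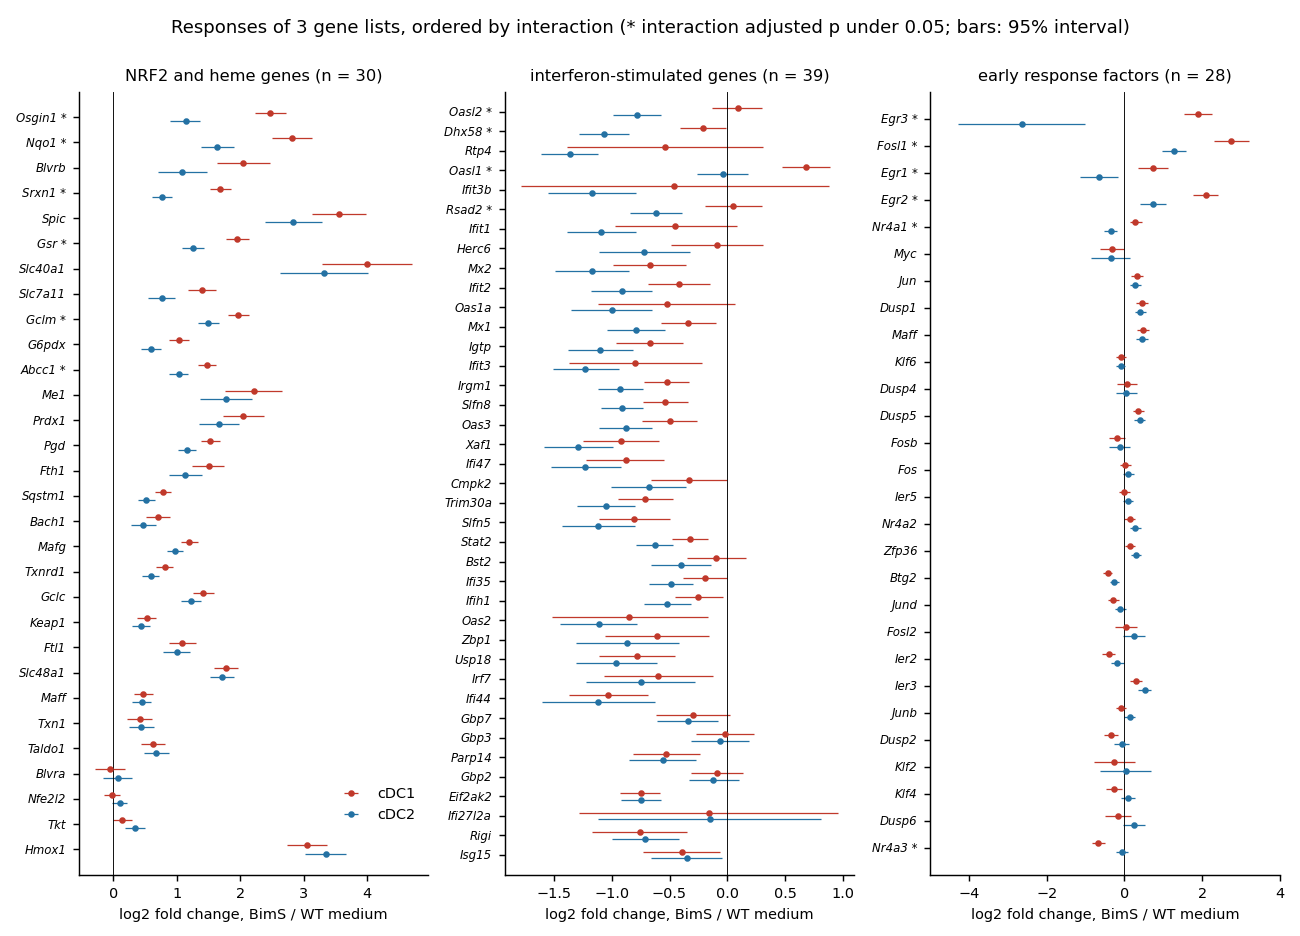
Change from WT to BimS medium (x axis, log2 fold change with 95% interval) in cDC1s and cDC2s for 3 lists: 30 NRF2 and heme genes, 39 of the 40 tested interferon-stimulated genes and 28 early response factors. Genes are ordered by interaction, and an asterisk marks an interaction with an adjusted p under 0.05. In cDC1s 27 of the 30 NRF2 and heme genes rise, and Oasl1 is the only interferon-stimulated gene that rises.

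The largest interactions of this pattern were those of Ptpn14, Dnah2, Cdcp1, Fosl1 and Zeb2, all of them genes with little RNA in cDC1s. Zeb2, a transcription factor that opposes the cDC1 fate, rose from 8.31, 6.74 and 8.17 CPM to 29.0, 26.6 and 25.6 CPM in cDC1s. In cDC2s it read 204, 185 and 135 CPM and 254, 258 and 207 CPM, a change of 0.46 (adjusted p = 0.0402) that was no longer called in the fit of cDC2s alone (adjusted p = 0.111). The interaction was 1.34 (adjusted p = 0.00733). Ptpn14, a tyrosine phosphatase, had 1 read in each cDC1 sample with WT medium and 31, 25 and 25 reads with BimS medium, a ratio of 27.7 (95% counting interval 9.15 to 137), and rose in cDC2s from 2.94 ± 0.469 to 11.5 ± 1.53 CPM. Its interaction lost its call without any 1 of 4 samples. Cdcp1, a transmembrane substrate of Src kinases, rose from 0.352 ± 0.147 to 2.51 ± 0.668 CPM in cDC1s and from 14.6 ± 2.4 to 34.6 ± 1.53 CPM in cDC2s. Dnah2, a dynein heavy chain, rose from 0.689 ± 0.276 to 3.35 ± 1.25 CPM and from 21.0 ± 1.93 to 33.9 ± 2.61 CPM.

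Levels in the other cell type were set beside those of lineage genes. As a share of the cDC2 level, the cDC1 level of Zeb2 went from 4.43% to 11.3%, that of Ptpn14 from 1.67% to 11.8% and that of Cdcp1 from 2.42% to 7.26%. The defining cDC2 genes Sirpa, Itgam and Cd209a went from 0.75% to 0.992%, from 1.44% to 1.66% and from 0.143% to 0.333%. The share of Cd209a rests on 3, 0 and 1 reads in cDC1s with WT and 2, 5 and 1 with BimS medium. The cDC1 genes Clec9a and Xcr1 stood in cDC2s at 2.04% and 2.19%, and at 0.333% and 0.332%, of their cDC1 level. Over the list of 15 cDC2 markers, the summed level in cDC1s was 120 to 143 CPM with WT and 93.7 to 120 CPM with BimS medium, against 477 to 545 CPM in cDC2s. The list includes Clec12a, which was higher in cDC1s with WT medium, so the sum does not measure cDC2 RNA in cDC1s.

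Of 24 markers of adherent tumor cells 18 were tested, and none had an interaction in edgeR (3 at an unadjusted p under 0.05, beside 8.13% of all genes, and 2 called with the block). DESeq2 called none of the 7 for which it gave an adjusted p. Thbs1, the matrix protein thrombospondin, was the only one that rose in cDC2s, by 1.55 (adjusted p = 1.5e-05), and changed by 0.82 in cDC1s (adjusted p = 0.0962). Their summed level was 22.1 to 23.1 CPM with WT and 22.5 to 27.4 CPM with BimS medium in cDC1s, and 121 to 140 CPM and 194 to 236 CPM in cDC2s. Bcl2l11, the gene of Bim that the tumor line overexpresses as BimS, read 1330 ± 33.8 and 1360 ± 30.3 CPM in cDC1s and 259 ± 18.7 and 292 ± 11.9 CPM in cDC2s (interaction -0.14, adjusted p = 0.77, with the block 0.038). The marker lists of macrophages (13 tested), of monocytes and neutrophils (9), of B cells (10), of NK and T cells (10) and of plasmacytoid dendritic cells (11) held no interaction gene in edgeR, with 2, 1, 0, 0 and 2 at an unadjusted p under 0.05 and 2, 1, 0, 0 and 2 called with the block. DESeq2 called 1 macrophage marker and gave no adjusted p for 8, 5, 9, 10 and 5 of the genes. Their summed levels with WT and with BimS medium were 66.7 to 69.8 and 44.5 to 51.8 CPM for macrophages in cDC1s and 48.9 to 61.2 and 46.8 to 47.4 CPM in cDC2s. For plasmacytoid dendritic cells they were 147 to 160 and 137 to 148 CPM in cDC1s and 219 to 239 and 212 to 220 CPM in cDC2s, and for monocytes and neutrophils 54.5 to 72.3 and 66.5 to 79.8 CPM and 126 to 158 and 110 to 139 CPM. For B cells they were 20.2 to 26.1 and 14.2 to 20.3 CPM in cDC1s and 36.3 to 42.8 and 28.7 to 34.6 CPM in cDC2s. For NK and T cells they were at most 1.03 CPM in cDC1s and 4.58 CPM in cDC2s. The part of RNA from other cells in the results was not tested.

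In 6 genes both cell types moved the same way and cDC2s by more. Sgk1 (ENSMUSG00000019970, chromosome 10 from 21758083 to 21875802), a serum- and glucocorticoid-induced kinase, rose from 109, 105 and 107 CPM to 186, 177 and 166 CPM in cDC1s. In cDC2s it rose from 22.2, 25.5 and 22.7 CPM to 90.1, 87.5 and 96.8 CPM, so that 1.96 in cDC2s stood against 0.72 in cDC1s and the interaction was -1.24 (SE 0.103, adjusted p = 1.75e-07), the lowest p of all genes tested. Ikbkg, the NF-κB regulator NEMO, rose from 78.5, 78.9 and 74.7 CPM to 107, 106 and 107 CPM in cDC1s and from 117, 115 and 104 CPM to 298, 276 and 259 CPM in cDC2s (interaction -0.84, adjusted p = 2.26e-05). Ikbkg overlaps G6pdx on the other strand, and without strand in the counting their reads cannot be told apart. Atp8a1, a phospholipid flippase, and Flrt3, an adhesion protein, rose by 0.98 and 0.77 in cDC2s and by 0.41 and 0.31 in cDC1s. Galnt7, a glycosyltransferase, and Stard7, a phosphatidylcholine transfer protein, fell in cDC2s by 0.74 and 0.78 on the log2 scale and in cDC1s by 0.31 and 0.36.

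Early response factors split between the patterns. Of 28 tested, 10 rose and 5 fell in cDC1s, 9 rose and 3 fell in cDC2s, and 6 had an interaction. Over all genes the shares were 4.94%, 3.5%, 5.24%, 4.87% and 0.759%. The interaction was positive for Fosl1, Egr1, Egr2, Egr3 and Nr4a1 and negative for Nr4a3. The median interaction was -0.09, and with the block 5 were positive and 9 negative, so the balance of directions turned. Egr2 rose from 2.11 ± 0.0589 to 8.96 ± 0.830 CPM in cDC1s and from 2.76 ± 0.336 to 4.61 ± 0.261 CPM in cDC2s (interaction 1.34, adjusted p = 0.00185). Egr1 rose from 2.62, 2.11 and 2.63 CPM to 4.22, 3.45 and 4.69 CPM in cDC1s and read 2.33, 1.74 and 1.85 CPM and 1.17, 1.23 and 1.39 CPM in cDC2s, where the groups did not overlap but the change of -0.65 missed the threshold (adjusted p = 0.0888, with the block 0.0487). Fosl1, the AP-1 subunit FRA1, rose by 2.75 in cDC1s and 1.28 in cDC2s. Atf3, a stress-induced factor of the integrated stress response list, rose from 72.3, 75.2 and 72.0 CPM to 108, 109 and 109 CPM in cDC1s and read 25.1, 28 and 25.1 CPM and 16.8, 23.4 and 23.9 CPM in cDC2s. The cDC2 change of -0.28 had an adjusted p of 0.0702, and with the block it was called, which made Atf3 an opposite gene (adjusted p = 0.000141).

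Among cytokines and growth factors, 4 of 25 tested had an interaction, beside 0.759% of all genes (Hbegf positive, Il6, Vegfa and Inhba negative). Among genes of dying-cell uptake it was 3 of 24 (Cd300a positive, Havcr2 and Lrp1 negative), and among LXR targets and lipid genes 2 of 21, Mylip and Fads1. Of these 21, 3 rose and 5 fell in cDC1s, where 4.94% of all genes rose and 3.5% fell. In cDC2s 2 rose and 5 fell, where 5.24% of all genes rose and 4.87% fell. Abca1 and Abcg1 of this list changed by -1.09 and -1.03 in cDC1s, opposite to Mylip. Fads1, a fatty acid desaturase, fell in cDC2s from 10.5 ± 0.990 to 6.32 ± 0.596 CPM and read 51.9 ± 5.58 and 47.8 ± 2.82 CPM in cDC1s. Its interaction of 0.61 (adjusted p = 0.0485) lost its call without any 1 of 9 samples. Plxna1, the receptor plexin A1, was the one called among 19 semaphorins, plexins and neuropilins, with rises of 1.52 in cDC1s and 0.62 in cDC2s (interaction 0.91, adjusted p = 0.00112). With the block the numbers called in these 4 lists were 6, 5, 7 and 6.

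None of 6 neutrophil chemokines, 13 other chemokines, 25 costimulation and maturation genes, 27 genes of cholesterol synthesis and uptake, 27 of TGF-β signaling, 32 of cell division and 17 of heat shock had an interaction in edgeR's test. At an unadjusted p under 0.05 there were 4, 1, 3, 5, 5, 4 and 4, in DESeq2 there were 0, 0, 0, 1, 0, 1 and 0, and with the block there were 3, 1, 7, 5, 6, 5 and 6. Over all genes 0.759% were called in edgeR and 8.13% had an unadjusted p under 0.05, and the number with the block is given above. Cxcl2 rose from 16.8 ± 0.933 to 117 ± 12.8 CPM in cDC1s and from 13.5 ± 0.726 to 124 ± 11.6 CPM in cDC2s, an interaction of -0.38 (-0.65 to -0.12, adjusted p = 0.269) that passed with the block (adjusted p = 0.000363). Cxcl3 gave -0.38 as well (adjusted p = 0.409, with the block 1.41e-07). The platelet chemokines Ppbp and Pf4 had larger estimates of the other sign without a call, 4.29 (adjusted p = 0.379, with the block 0.318) and 5.6 (adjusted p = 0.328, with the block 8.19e-20). Ppbp rose in cDC1s by 4.73 (adjusted p = 0.00339), and in cDC2s with WT medium 1 sample held 61 reads of it and the other two none. For the maturation genes Cd80, Cd86, Cd40, Cd274 and Ccr7 the interactions were -0.20 (-0.39 to 0.00), -0.02 (-0.20 to 0.16), 0.00 (-0.22 to 0.22), -0.10 (-0.36 to 0.17) and -0.37 (-0.70 to -0.03), with adjusted p-values from 0.539 to 1. With the block Cd80 (adjusted p = 0.00141) and Ccr7 (adjusted p = 1.15e-13) were called. Ccr7, the receptor that guides dendritic cells to lymph nodes, fell in cDC1s from 556 ± 45.1 to 377 ± 51.5 CPM (adjusted p = 0.00347) and read 1330 ± 167 and 1160 ± 135 CPM in cDC2s (adjusted p = 0.349), so that the call in one cell type came without a called difference between them.

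Several named interactions rest near the threshold. Leaving out 1 sample at a time ended the call, beside the cases given above, in 11 of 12 settings for Galnt7, in 10 for Lratd2 and in 9 each for Grn, Trim12c, Gclm and Stard7, with adjusted p-values up to 0.178, 0.181, 0.153, 0.163, 0.186 and 0.144. It did so in 7 settings each for Nfkb1, Ctsc, Abcc1 and Dnah2 (up to 0.125, 0.192, 0.126 and 0.163) and in 6 each for Havcr2, Inhba, Cdcp1, Atp8a1 and Egr1 (up to 0.134, 0.145, 0.221, 0.0978 and 0.08). It did so in 5 for Snx30 (0.109), in 4 each for Plekhg3 (0.075) and Ddit4 (0.133), in 3 for Adgrg5 (0.0604), in 2 for Flrt3 (0.08) and in 1, without cDC1 WT replicate 3, for Selp (0.0522). The interactions of Ankrd55, Marchf3, Cd300a, Abr, Met, Mmp19, Ptpn6, Plscr1, Dhx58, Oasl2, Cd200r1, Ifi207, Pfkfb3, Vegfa, Lrp1, Srxn1, Nqo1, Zeb2, Sgk1 and Ikbkg kept their call in each of the 12.

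The interaction changed the distance between the cell types in each direction. Of the 149 genes, the difference in level between cDC1s and cDC2s grew in 73 with BimS medium, shrank in 50 and changed its sign in 26, and in 11 of these 26 it was called in both media. With WT medium, 59 of the 149 were higher in cDC1s, 66 higher in cDC2s and 24 not called, and over all genes 44.5% differed between the cell types in either medium. The distance shrank for 19 of the 34 genes that changed by more in cDC1s, and it grew for 31 of the 50 genes called in cDC1s only, for 26 of the 46 called in cDC2s only and for 9 of the 13 opposite genes.

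**Figure D5:**
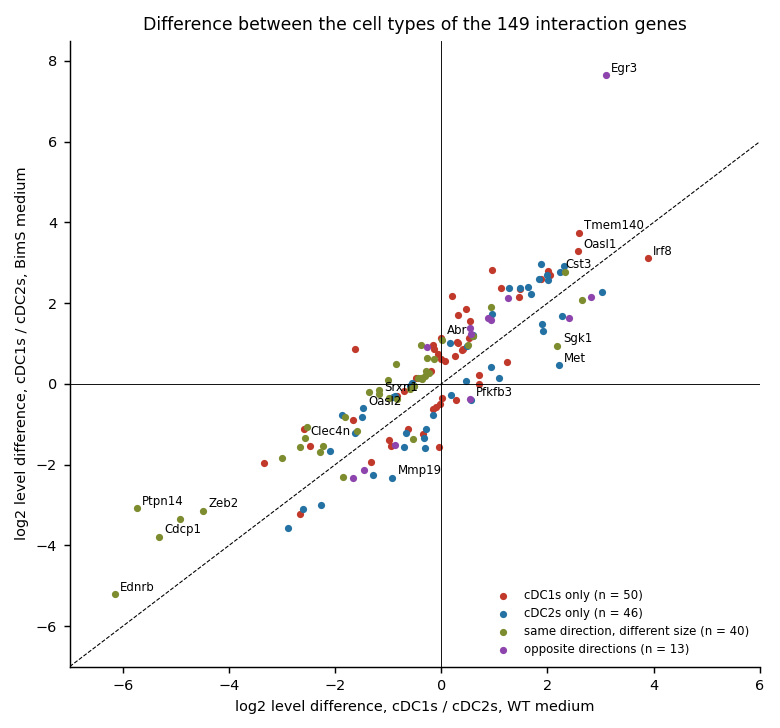
Difference in level between cDC1s and cDC2s (log2) with WT medium (x axis) and with BimS medium (y axis) for the 149 interaction genes, colored by pattern. On the dashed line the difference is the same in both media. Genes such as Ptpn14, Zeb2, Cdcp1 and Ednrb at the lower left lie above the line, closer to 0 with BimS medium, and Pfkfb3 lies across 0.

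The RIPK3 samples, scaled with the other groups but left out of the fit, are set beside the values above as a description. Met in cDC2s read 11.4 and 12.0 CPM with RIPK3 medium, against 14.1 to 17.2 CPM with BimS and 3.18 to 4.82 CPM with WT medium. Mmp19 in cDC2s read 145 and 161 CPM, against 132 to 144 CPM and 46.7 to 55.0 CPM. Irf8 in cDC1s read 167 to 184 CPM with RIPK3 medium and 177 to 194 CPM with BimS medium. These genes were on the same side of WT with both types of debris. Egr3 in cDC1s read 7.15 to 10.5 CPM with BimS and 2.34 to 2.43 CPM with WT medium, and its RIPK3 samples, at 0.703 to 2.93 CPM, lay on both sides of the WT range. Ifi207 in cDC1s read 134 to 152 CPM with RIPK3, below its WT range of 173 to 185 CPM, and 213 to 229 CPM with BimS medium.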

How the data were processed

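Bulk polyadenylated RNA of sorted cDC1s and cDC2s was sequenced. The authors aligned reads with STAR 2.7.10a to GRCm39 and deposited raw counts per gene, with no normalization, and a second table of log2 normalized values, which the authors scaled by total counts and which were used here only as an alternative. Whether the counting used strand is not given in the sources used here. Of 31091 gene identifiers, 30854 matched GENCODE M39, and 148 lines without an identifier (0.0258% to 0.0366% of counts) were left out.

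Counts of the 12 samples were fitted in R 4.3.3 with edgeR 4.0.16 (robust quasi-likelihood test, TMM, 1 mean per group), keeping 19624 genes counted in 50% or more of the samples. Every adjusted p is Benjamini-Hochberg over all genes tested. Patterns were set by the adjusted p under 0.05 of the interaction and of each cell type's change. Genes were named by rule: a mean of 5 CPM in a group, the 5 largest interactions of each pattern, list members with an interaction, all opposite genes and 6 fixed genes. Members and the 26 gene lists were chosen with earlier results of these data known. Genes said to be picked after their values were seen lie outside the rule. Intervals of ratios cover counting error only.

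Alternatives were DESeq2 1.42.0, other size factors and filters, limma 3.58.1, all 17 samples, replicate blocks and leaving out each sample. Pairing was checked by correlating deviations from group means: within a cell type, 6 of 6 same-numbered pairs exceeded r = 0.1 (median 0.463), against 1 of 12 pairs with different numbers, so the numbers pair samples from the data. Between the cell types, 7 of 12 same-numbered pairs exceeded r = 0.1 (median 0.117), against 3 of 24 with different numbers (median -0.0576). The blocked fit left 4 residual degrees of freedom and estimated no gene-to-gene variation of the spread beyond the trend. Promoter sequence was read from GRCm39. A few genes counted in the totals are not reported by name here.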

Additional observations from a re-analysis of the deposited data

Results flagged for a closer look

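The test of the difference in response between the cell types picked out 149 genes. Within them, 13 genes moved up in one cell type and down in the other. Their interactions were 4.54 for Egr3, 1.19 for Cd200r1, 0.88 for Ifi207, 0.86 for Nt5c3, 0.75 for Stx3, 0.67 for Mafk and 0.64 for Nr4a1, and -0.93 for Pfkfb3, -0.76 for Mycl, -0.69 for Vegfa, -0.67 for Lrp1, -0.66 for Grk5 and -0.64 for Pak1. Egr3 has at most 6 reads in every cDC2 sample. Leaving out 1 sample at a time ended the interaction call of Mycl without cDC1 WT replicate 1, cDC2 WT replicate 2 or cDC1 BimS replicate 3 (adjusted p up to 0.0558 in edgeR) and of none of the other 12. The opposite pattern also needs both calls within the cell types, and the number of opposite genes was 7 without cDC1 BimS replicate 3.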

How the results depend on the processing

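Counts are given in the order all interaction genes, cDC1s only, cDC2s only, opposite, same direction, with 149, 50, 46, 13 and 40 in the fit as reported. No filter on low counts gave 297, 98, 98, 20 and 75. limma on log2(count + 1) without normalization gave 77, 29, 20, 2 and 23. The replicate block shared by the cell types gave 322, 96, 104, 27 and 92, and the replicate block within each cell type gave 1301, 306, 439, 115 and 417. DESeq2 gave 225 interaction genes and 81 in cDC2s only. An unadjusted p under 0.05 with a log2 change over 0.5 gave 889, 260 and 307, and 69 in the same direction. With 1 sample left out, the counts ranged from 88 (without cDC1 WT replicate 1) to 230 (without cDC2 WT replicate 1), from 33 to 85, from 24 to 79, from 7 (without cDC1 BimS replicate 3) to 17 and from 21 to 59 (without cDC2 WT replicate 3). RLE size factors, filterByExpr, limma on the deposited values, all 17 samples, protein-coding genes alone and calls from separate fits (the last pair chosen after seeing the data) stayed within 1.5 times of each count. No interaction changed direction in any setting, 51 genes kept their call in every one and 77 lost it without at least 1 sample. Counting limits precision for genes near 0 reads, such as Egr3 and Ptpn14. The cause of these moves was not tested.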
